A study of Mus musculus with 6 samples.

Results

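The fibroblast growth factor (FGF) genes described here are 3 ligands (*Fgf2*, *Fgf7* and *Fgf21*), the 4 receptor genes *Fgfr1* to *Fgfr4*, and 3 Sprouty genes (*Spry1*, *Spry2* and *Spry4*). These 10 genes were found by their symbols among the 55401 genes of the count matrix, each on 1 row, and were compared between *Phf2* KO and control cells. The cells were C2C12, myoblasts of a mouse line that form myotubes in medium with 2% horse serum, and polyadenylated RNA was taken 2 d post differentiation. *Phf2* encodes a demethylase of histone H3 lysine 9. The KO cells had received a pool of 4 plasmids with Cas9, ZsGreen1 and a guide against *Phf2*. They were sorted by fluorescence and expanded without cloning, so they are a mixture of edits. The controls, labelled wild type, were mock cells sorted in the same way after a plasmid with Cas9, ZsGreen1 and a guide without a match in the mouse genome. Cas9 was therefore not directed to cut in the controls, and a response to cutting cannot be told apart from the loss of *Phf2*. There were 3 libraries of each group, from wells of a single experiment, so p-values measure the spread between wells, and a difference between the 2 sorted pools cannot be told apart from an effect of *Phf2*.

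FGFs are secreted proteins that bind receptor tyrosine kinases together with heparan sulfate on the cell surface. The receptors pass the signal through the adaptor FRS2 to Ras and the kinase ERK, and in myoblasts FGF signalling is known for sustaining proliferation and holding back differentiation. Sprouty proteins are induced by the pathway and inhibit it. FGF7 is a paracrine ligand that acts on a splice form of FGFR2 found in epithelia, FGF2 is a broad mitogen of myoblasts, and FGF21 is a hormone-like ligand that needs the co-receptor β-Klotho and is secreted by muscle under stress.

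The matrix holds estimated counts, between 52526109 and 67502788 per library. A count stood for a median of 74.98 to 74.99 covered bases, so a pair of 150 bp reads adds about 4 counts and the totals are not read numbers. *Phf2* itself was at 95.5 to 104.6 CPM (the count relative to the library total, scaled by TMM) in the controls and at 37.6 to 41.1 CPM in the *Phf2* KO libraries. This is RNA, and the paper, which measured PHF2 protein in the edited myoblasts by Simple Western, reported that most of the protein was lost. Of 10 myotube markers, 10 were lower in *Phf2* KO cells and 8 of them passed the threshold, an adjusted p under 0.05 in the quasi-likelihood test of edgeR (Benjamini-Hochberg, 17310 genes). A fit blocked on the replicate number called 9 of them and exactTest called 10. The summed TPM (a level per transcript length, relative to the library total) of these markers was 8257 to 9776 in the controls and 6400 to 7204 in *Phf2* KO cells. Of 10 proliferation markers, 0 passed the threshold in edgeR's quasi-likelihood test, exactTest, DESeq2 or limma-voom, and 0 had an unadjusted p under 0.05. Over all genes tested, 6.48% passed in the quasi-likelihood test and 19.4% had such a p, so 0 of 10 does not show that proliferation was unchanged. The summed TPM of 8 fibroblast markers was 2324 to 2498 in the controls and 2734 to 2844 in *Phf2* KO cells, and *Thy1* and *Tcf21* were at 0 in every library. Of the 6 tested, 3 were higher and 3 lower, with a median log2 fold change of -0.04. The most abundant genes weigh most in such a sum, so it does not show a general rise of these markers. *Col1a1* was higher and *Pdpn* was lower past the threshold, but exactTest called 0 of the fibroblast markers higher, and DESeq2 and the replicate block called 2 higher. Endothelial, macrophage and adipocyte markers summed to at most 0.356, 3.74 and 6.40 TPM in any library. Of the 6 myoblast and satellite cell markers tested, 0 passed the threshold in the quasi-likelihood test, 3 had an unadjusted p under 0.05, DESeq2 called 3, all lower, and the replicate block called 1, lower. The part of these shifts in the results for the FGF genes was not tested, and in bulk RNA fewer differentiated cells and less RNA per cell cannot be told apart. The paper compared the myotubes themselves on a later day of differentiation than that of the RNA. It reported no significant difference in their diameter, their total area or the share of nuclei inside them.

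All 10 FGF genes passed the filter on low counts. Of them, *Fgf7* was higher and *Fgfr1* was lower in *Phf2* KO cells past the threshold, and the other 8 did not pass it. That is 2 of 10, where 6.48% of all genes tested were called (3.22% higher and 3.26% lower). The 3 *Phf2* KO libraries did not overlap the 3 controls for *Fgf7*, *Fgfr1*, *Fgfr3* and *Fgfr4*, 4 of 10, against 25.1% of all genes tested. In direction, 4 of the 10 were higher and 6 lower, against 49.8% and 50.2% of all genes tested, and 3 had an unadjusted p under 0.05, against 19.4%. The 10 genes had a median log2 fold change of -0.17, and that of all genes tested was -0.001.

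**Figure D1:**
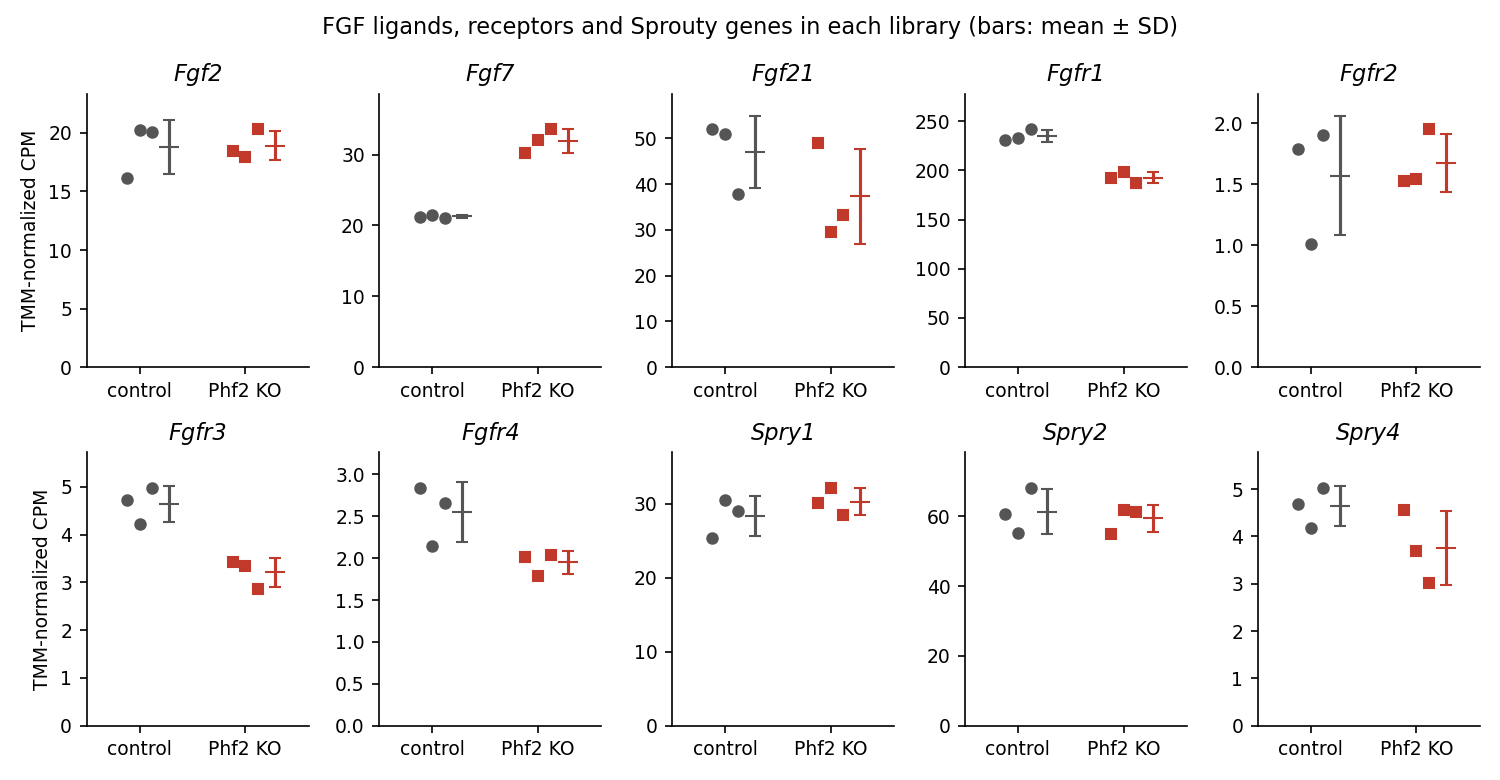
TMM-normalized CPM of each of the 10 FGF genes (1 panel per gene, linear axis from 0) in the 3 control libraries (grey circles) and the 3 *Phf2* KO libraries (red squares), with mean ± SD beside the points. *Fgf7* is higher in every *Phf2* KO library and *Fgfr1*, *Fgfr3* and *Fgfr4* are lower, while the groups overlap for the other 6 genes.

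Among the ligands, *Fgf7* (ENSMUSG00000027208, plus strand of chromosome 2, 126034658 to 126091185, GRCm38) was the one that passed the threshold. Its level was 21.2, 21.5 and 21.1 CPM in control replicates 1, 2 and 3 and 30.2, 32.1 and 33.6 CPM in *Phf2* KO replicates 1, 2 and 3. The controls lay within a narrow band and every *Phf2* KO library lay well above it. Control cells averaged 21.3 ± 0.200 CPM (SD, n = 3), and the average of *Phf2* KO cells rose to 31.9 ± 1.69 CPM (SD, n = 3). On the log2 scale this was a change of 0.59 (standard error 0.071, 95% interval 0.43 to 0.74, edgeR adjusted p = 0.000235), and it passed the threshold in 11 of 11 alternative fits of all libraries and in 6 of 6 fits that left out a library. Per transcript length, *Fgf7* was at 17.0 to 17.1 TPM in the controls and at 24.3 to 27.9 TPM in *Phf2* KO cells.

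The promoter of *Fgf7* is shown because it was the ligand gene that passed the threshold. Capitals mark the E-box CANNTG, the general motif of basic helix-loop-helix factors such as MyoD and myogenin, searched on both strands in the 250 bases before the RefSeq start (build GRCm38.p6). The promoter of *Fgfbp1*, the binding protein described further on, is shown for comparison as the pathway gene with the largest change past the threshold.
*Fgf7* (chr2:126034408-126034657, plus strand): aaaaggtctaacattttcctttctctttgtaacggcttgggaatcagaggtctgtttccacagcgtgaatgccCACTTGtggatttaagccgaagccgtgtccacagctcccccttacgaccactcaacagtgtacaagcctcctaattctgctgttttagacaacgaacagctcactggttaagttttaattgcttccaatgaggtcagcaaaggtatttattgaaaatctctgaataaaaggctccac
*Fgfbp1* (chr5:43981800-43982049, minus strand): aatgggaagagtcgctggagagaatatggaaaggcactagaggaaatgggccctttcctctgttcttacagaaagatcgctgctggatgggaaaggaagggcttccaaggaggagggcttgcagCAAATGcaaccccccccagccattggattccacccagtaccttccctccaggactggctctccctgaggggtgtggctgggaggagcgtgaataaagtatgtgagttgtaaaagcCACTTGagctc
The *Fgf7* window held 1 E-box and the *Fgfbp1* window held 2. An E-box was present in 66.2% of 32851 mouse promoter windows of this length, so its presence sets neither gene apart from most others. The stricter form CAGCTG, which is contained in CANNTG and preferred by myogenic factors, was in 13.0% of windows. Of the 8 FGF genes matched in the RefSeq promoter table, *Fgfr3* held it in 1 of its 2 windows, and the other 7 held no such letters in theirs.

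*Fgf2* (ENSMUSG00000037225, plus strand of chromosome 3, 37348346 to 37410108) was at 16.2, 20.2 and 20.1 CPM in the control libraries and at 18.5, 17.9 and 20.3 CPM in the *Phf2* KO libraries. The groups overlapped across nearly their whole range. The log2 difference between the group levels was 0.01, with a 95% interval from -0.21 to 0.22. On the TPM scale the levels were 1.66 to 2.52 in the controls and 1.20 to 1.88 in *Phf2* KO cells, and the direction turned (log2 fold change -0.33 on log2(TPM + 1), adjusted p = 0.415 in limma). *Fgf2* has 8 annotated transcripts, and 640 bases of its exons (9.44%) are also exons of *Nudt6* on the opposite strand. The library kit keeps strand, but whether the counting used it is not given in the sources used here, so reads of the 2 genes may be mixed. Why the count and TPM scales differed for *Fgf2* was not tested.

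*Fgf21* (ENSMUSG00000030827, minus strand of chromosome 7, 45613886 to 45615490) varied more between libraries than between groups. Its level was 52.0, 50.9 and 37.8 CPM in control replicates 1, 2 and 3 and 49.0, 29.6 and 33.3 CPM in *Phf2* KO replicates 1, 2 and 3. Control replicates 1 and 2 and *Phf2* KO replicate 1 were high, the other 3 libraries were low, and the highest value was 1.76 times the lowest. The coefficient of variation was 16.8% in the controls and 27.6% in *Phf2* KO cells, against 0.942% and 5.30% for *Fgf7*. In the controls *Fgf7* had the lowest value of the members and *Fgfr2* the highest (30.9%, and 14.3% in *Phf2* KO cells). With the spread of *Fgf21*, its log2 fold change was -0.33 with a 95% interval from -1.01 to 0.35 (adjusted p = 0.592 in the quasi-likelihood test), which leaves room for changes in both directions. It ran from -0.58 without *Phf2* KO replicate 1 to -0.19 without *Phf2* KO replicate 2.

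*Fgf21* is a known target of ATF4, the transcription factor of the amino acid and stress response. Its promoter is shown because it held the letters of the composite element bound by ATF4 and C/EBP, TGATGNAAT, here on the opposite strand and in capitals.
*Fgf21* (chr7:45615491-45615740, minus strand): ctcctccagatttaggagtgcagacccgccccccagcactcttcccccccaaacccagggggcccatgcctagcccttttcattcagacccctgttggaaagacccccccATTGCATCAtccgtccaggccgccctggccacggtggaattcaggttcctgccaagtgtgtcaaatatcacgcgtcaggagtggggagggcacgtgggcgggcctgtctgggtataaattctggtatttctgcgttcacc
The match ATTGCATCA began 140 bases before the gene start. Such a match, on either strand, was present in 0.816% of the 32851 promoter windows and in no window of the other 7 FGF genes in the table. A match of letters is a description and not a measured binding site.

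The libraries that were high for *Fgf21* were also high for most genes of a list of 10 ATF4 genes. Control replicates 1 and 2 and *Phf2* KO replicate 1 were the 3 highest libraries for 7 of the 10 (*Trib3*, *Asns*, *Chac1*, *Gdf15*, *Sesn2*, *Psat1* and *Phgdh*), against 6.10% of the 17310 genes tested. *Trib3*, a pseudokinase induced by ATF4, was at 15.3, 15.7 and 12.6 CPM in the controls and at 20.8, 11.3 and 12.1 CPM in *Phf2* KO cells. *Asns*, the asparagine synthetase, was at 90.2, 91.2 and 75.0 CPM in the controls and at 86.9, 67.5 and 65.3 CPM in *Phf2* KO cells. *Trib3* and *Asns*, both among the 7, and the rest of the 7 were named after their values were seen. The genes of the list outside the 7 were *Atf3*, *Ddit3* and *Atf4*. *Ddit3* stands on 2 rows of the matrix, and the first of them was read. *Atf4* itself, which is controlled mainly through translation, was at 281 to 321 CPM in all 6 libraries and did not show this order. Of the 10 genes, 0 passed the threshold in the quasi-likelihood test, DESeq2 and limma-voom, 1 had an unadjusted p under 0.05, and exactTest called 1, *Psat1* (adjusted p = 0.0175). Of all genes tested, 6.48% passed in the quasi-likelihood test and 19.4% had an unadjusted p under 0.05. The list says which libraries were high, and what raised it in them was not tested.

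**Figure D2:**
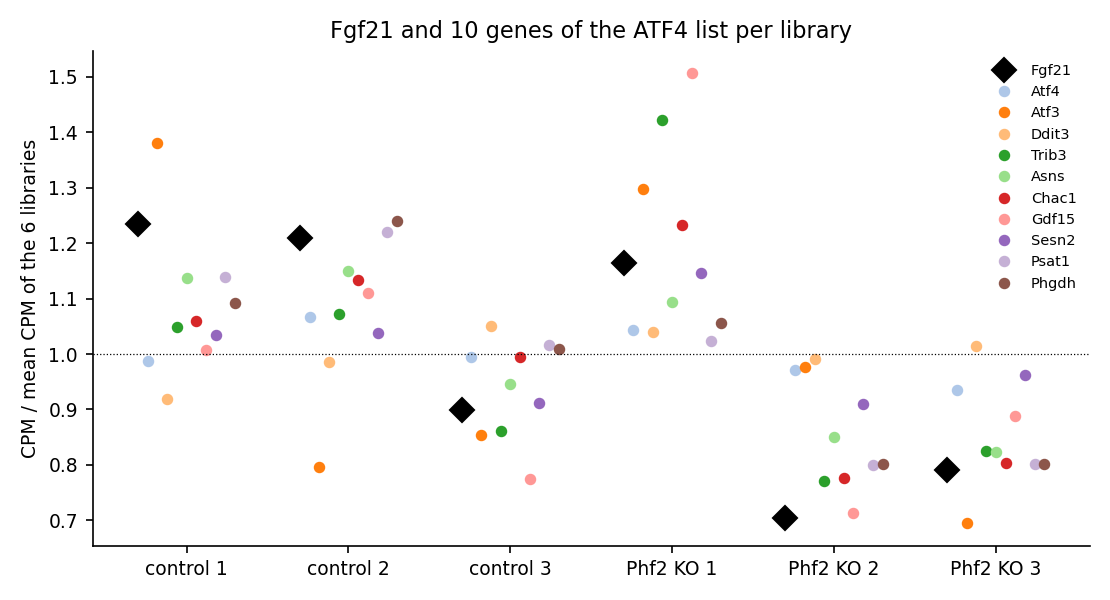
CPM of *Fgf21* (black diamonds) and of the 10 ATF4 genes (coloured circles) in each of the 6 libraries, each gene divided by its mean over the 6 libraries (linear axis, dotted line at 1). *Fgf21* lies above its mean in control replicates 1 and 2 and *Phf2* KO replicate 1, as do *Trib3*, *Asns*, *Chac1*, *Gdf15*, *Sesn2*, *Psat1* and *Phgdh*.

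The co-receptor of FGF21 was nearly absent from these libraries. *Klb*, which encodes β-Klotho, had 3, 11 and 3 estimated counts in the controls and 0, 7 and 18 in *Phf2* KO cells, fewer than 5 read pairs in every library by the unit above. *Kl*, which encodes α-Klotho, had 4 counts in *Phf2* KO replicate 1 and 0 in the other libraries. Neither gene passed the filter, and no comparison was made. Epithelial markers were also at the limit of detection, with a summed level of at most 0.556 TPM, and *Esrp1*, a splicing factor that favours the epithelial form of FGFR2, was at 0 counts in all 6 libraries.

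Among the receptors, *Fgfr1* (ENSMUSG00000031565, plus strand of chromosome 8, 25513654 to 25575718), the main FGF receptor of myoblasts, fell. Its level was 230.6, 232.5 and 241.9 CPM in control replicates 1, 2 and 3 and 192.4, 198.5 and 187.0 CPM in *Phf2* KO replicates 1, 2 and 3. The groups did not overlap, and each was tight, with coefficients of variation of 2.58% and 3.01%. Control cells averaged 235.0 ± 6.05 CPM (SD, n = 3). *Phf2* KO cells averaged 192.6 ± 5.79 CPM (SD, n = 3), or 82.0% of that, a log2 fold change of -0.29 (standard error 0.044, 95% interval -0.38 to -0.19, edgeR adjusted p = 0.00132). It passed the threshold in 6 of 6 fits without a library and in 9 of 11 alternatives with all libraries. The exceptions were limma's tests on the TPM scale, log2(TPM + 1) and log2(TPM + 0.1), with an adjusted p of 0.184 and 0.179 at log2 fold changes of -0.28 and -0.28. The paper, from the same libraries, also listed *Fgfr1* among the genes lower in *Phf2* KO cells, under calcium signalling.

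*Fgfr3* (ENSMUSG00000054252, plus strand of chromosome 5, 33721674 to 33737068) was the member nearest to the threshold without passing it. It was at 4.72, 4.22 and 4.98 CPM in the controls and at 3.43, 3.33 and 2.87 CPM in *Phf2* KO cells. Every *Phf2* KO library was below every control. Its log2 fold change was -0.53 (95% interval -0.90 to -0.16, adjusted p = 0.0883 from the quasi-likelihood test), and the adjusted p ran from 0.0529 in DESeq2 to 0.240 over 11 alternatives, so it passed in none of them. On log2(TPM + 0.1) the change was -0.88. Its exons share 998 bases (13.9%) with an unclassified transcript on the opposite strand, G630022F23Rik.

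*Fgfr4* (ENSMUSG00000005320, plus strand of chromosome 13, 55152640 to 55168759), a receptor typical of the myogenic lineage, was at 2.84, 2.15 and 2.66 CPM in the controls and at 2.02, 1.79 and 2.04 CPM in *Phf2* KO cells. The groups did not overlap, but control replicate 2 was close to the *Phf2* KO libraries. A log2 fold change of -0.39 was fitted (95% interval -0.86 to 0.08, adjusted p = 0.371 in the quasi-likelihood test), and on log2(TPM + 0.1) it was -0.59. *Fgfr2* (ENSMUSG00000030849, minus strand of chromosome 7, 130162451 to 133123350) was at 1.79, 1.01 and 1.91 CPM in the controls and at 1.53, 1.54 and 1.95 CPM in *Phf2* KO cells. Its 6 values were 59 to 132 estimated counts, so few read pairs stand behind each, and the log2 fold change of 0.09 had a 95% interval from -0.52 to 0.71. The annotated gene also shares 314 exonic bases (3.04%) with *Ctbp2* on the same strand, so some of these counts may belong to that gene.

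The levels of the receptors were compared per length, as TPM. *Fgfr1* was at 101.6, 93.3 and 107.4 TPM in the controls and at 79.5, 78.4 and 91.5 TPM in *Phf2* KO cells. The other 3 receptors were between 0.611 and 2.21 TPM in every library. *Fgfr1* thus held 95.9% ± 0.614 (SD, n = 3) of the receptor TPM in control cells and 96.5% ± 0.603 (SD, n = 3) in *Phf2* KO cells. The sum of the 4 receptors was 98.0 to 111.8 TPM in the controls and 81.1 to 94.3 TPM in *Phf2* KO cells, so the summed level was lower in every *Phf2* KO library, while the share of *Fgfr1* differed by about 1 SD. *Fgfr4* was at 1.73 to 1.84 TPM in the controls and at 1.08 to 1.25 TPM in *Phf2* KO cells.

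**Figure D3:**
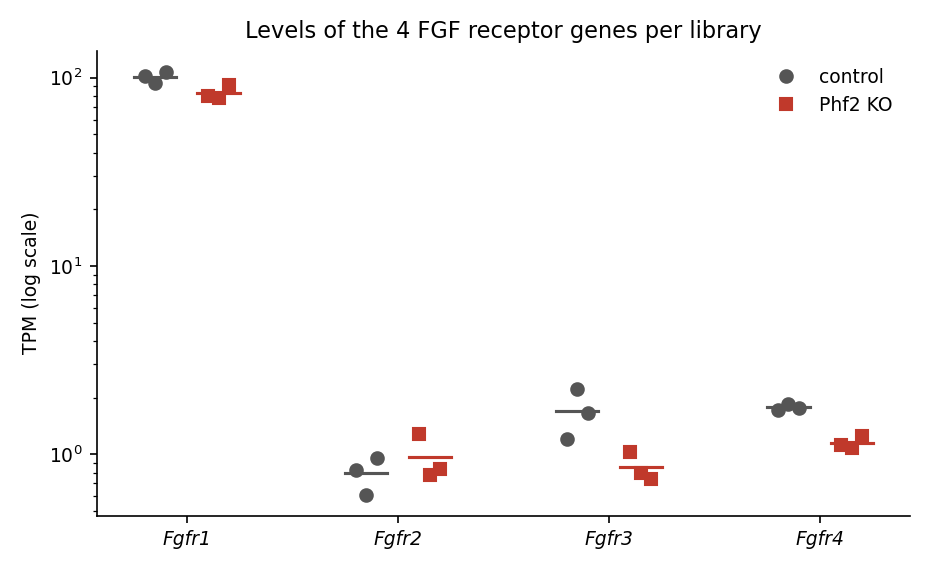
TPM of *Fgfr1*, *Fgfr2*, *Fgfr3* and *Fgfr4* (log axis) in the 3 control libraries (grey circles) and the 3 *Phf2* KO libraries (red squares), with a line at each mean. *Fgfr1* is at 78.4 to 107.4 TPM and the other receptors are at 2.21 TPM or less.

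The Sprouty genes did not pass the threshold in any fit. *Spry1* (ENSMUSG00000037211, plus strand of chromosome 3, 37639947 to 37644598), known for its part in the quiescence of satellite cells, was at 25.3, 30.5 and 29.1 CPM in the controls and at 30.1, 32.1 and 28.5 CPM in *Phf2* KO cells. Its log2 fold change was 0.10 (95% interval -0.08 to 0.27), from 0.02 without control replicate 1 to 0.15 without control replicate 2, and 710 bases of its exons (24.4%) are shared with the unclassified transcript Gm42922 on the opposite strand. *Spry2* (ENSMUSG00000022114, minus strand of chromosome 14, 105891947 to 105896819) was at 60.6, 55.3 and 68.2 CPM in the controls and at 54.9, 61.9 and 61.4 CPM in *Phf2* KO cells, with a log2 fold change of -0.05 (95% interval -0.21 to 0.12). For both genes the groups overlapped, and the intervals leave changes of up to these limits possible. *Spry4* (ENSMUSG00000024427, minus strand of chromosome 18, 38586247 to 38601415) was at 4.68, 4.19 and 5.03 CPM in the controls and at 4.57, 3.69 and 3.01 CPM in *Phf2* KO cells. *Phf2* KO replicate 1 lay among the controls and the other 2 lay below them. Its log2 fold change was -0.30 (95% interval -0.70 to 0.10, adjusted p = 0.425 in the quasi-likelihood test), and it ran from -0.47 without *Phf2* KO replicate 1 to -0.16 without *Phf2* KO replicate 3.

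**Figure D4:**
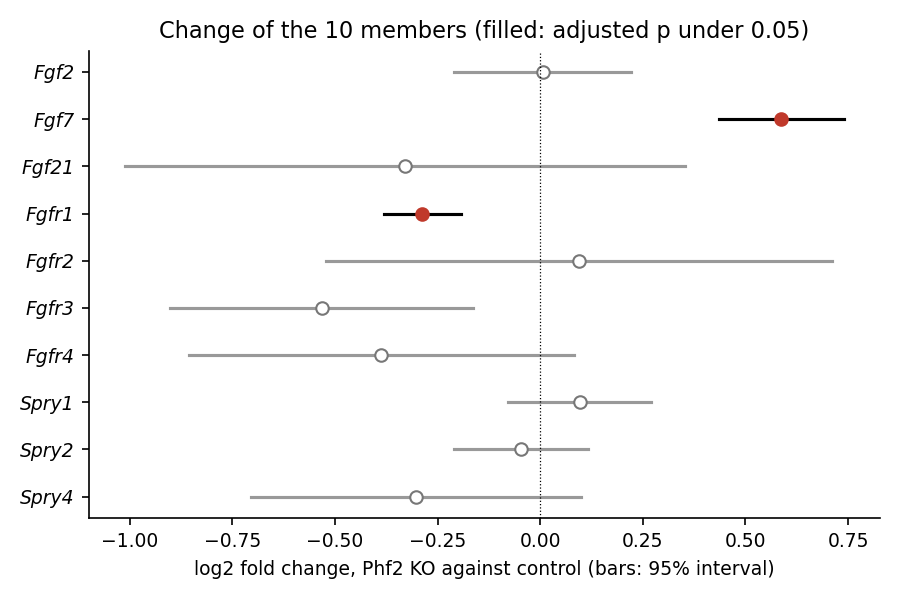
Log2 fold change of *Phf2* KO against control for the 10 FGF genes, from edgeR's quasi-likelihood fit, with 95% intervals. Filled points (*Fgf7* at 0.59 and *Fgfr1* at -0.29) had an adjusted p under 0.05, the interval of *Fgfr3* lies below 0 before adjustment, and those of the other 7 genes include 0.

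By mean TPM in the controls, the order of the 10 genes was *Fgf21* (106.4), *Fgfr1* (100.8), *Spry2* (63.5), *Spry1* (22.2), *Fgf7* (17.1), *Spry4* (2.10), *Fgf2* (2.07), *Fgfr4* (1.77), *Fgfr3* (1.69) and *Fgfr2* (0.797). The ranges of *Fgf21* and *Fgfr1* overlapped, as did those of neighbours from *Spry4* to *Fgfr3*. The place of *Fgf2* depended on the scale. In the controls it had 18.8 CPM over 6782 exonic bases, and *Spry4* had 4.63 CPM over 4755. By counts per exon length *Fgf2* thus stood above *Spry4*, and why TPM differed was not tested. In *Phf2* KO cells *Fgf7* (26.1) stood beside *Spry1* (25.2) with overlapping ranges, whereas in the controls every *Fgf7* value was below every *Spry1* value. *Fgfr3* (0.853) was last in *Phf2* KO cells, with a range that overlapped that of *Fgfr2* (0.967).

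The genes whose log2(CPM + 1) most resembled the 2 changed members over the 6 libraries were looked up among 10922 genes whose mean CPM was 5 or more. For *Fgf7* they were *Rps4x* (Pearson's r = 0.996), *Lgr4* (r = 0.993) and *Nrd1* (r = 0.993). For *Fgfr1* they were *Spen* (r = 0.998), *Arrdc1* (r = 0.995) and *Nfkb2* (r = 0.994). These values describe 6 points in 2 groups of 3, and the libraries within a group share a differentiation state and a pool of cells. They are the highest among 10922 genes, for members chosen because the groups differed. Any gene with a similar difference between the groups gives a high r, so the values show no link beyond that.

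The other pathway genes were read from 8 lists with 113 genes, of which 90 were tested. The 10 ATF4 genes above are 1 of these lists, although they are not genes of FGF signalling, and 0 of them passed the threshold. Of the 90 genes, 7 were higher and 2 were lower past the threshold (9 of 90, against 6.48% of all genes), and the median log2 fold change was 0.04. The 9 genes were spread over 5 lists. Further secreted ligands were scarce. Of 15, 8 were at 0 in all 6 libraries, 5 had at most 16 counts in any library, and only *Fgf5* and *Fgf10* were tested. *Fgf5* was at 0.614, 0.704 and 0.704 CPM in the controls and at 0.179, 0.343 and 0.177 CPM in *Phf2* KO cells, from 35 to 41 and from 11 to 18 estimated counts. Its log2 fold change of -1.54 did not pass the threshold (adjusted p = 0.0960 in the quasi-likelihood test, and from 0.0270 with exactTest to 0.114 over the 9 alternatives that gave one), and on log2(TPM + 1) it was -0.40. *Fgf10*, a mesenchymal ligand of the same subfamily as FGF7, had a log2 fold change of -0.59 (adjusted p = 0.126), which was -0.35 without control replicate 1 and -0.17 on log2(TPM + 1). *Fgf5* passed with exactTest, *Fgf10* did not, and neither passed with limma-voom. DESeq2 gave *Fgf5* no adjusted p, and *Fgf10* had 0.0703 there. Both had an unadjusted p under 0.05 in the quasi-likelihood test. Of the 3 intracellular FGF homologous factors tested, 0 passed in any of these 4 tests and 1 had an unadjusted p under 0.05 in the quasi-likelihood test. The most abundant were *Fgf11* (17.7 TPM in control and 15.8 TPM in *Phf2* KO cells) and *Fgf14* (1.03 and 1.03 TPM). *Fgf13* had 25 to 52 estimated counts but 0.0034 to 0.0071 TPM, so for this gene the scales did not describe the same signal, and the cause was not tested.

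*Fgfbp1* (ENSMUSG00000048373, minus strand of chromosome 5, 43978858 to 43981779) encodes a secreted protein that releases FGFs from the matrix, and its level was less than 50% of the control level. It was at 5.98, 5.19 and 5.89 CPM in the controls and at 2.80, 2.82 and 2.67 CPM in *Phf2* KO cells. The controls were about even, the *Phf2* KO libraries were nearly equal, and the groups lay far apart. On the log2 scale this was a change of -1.04 (standard error 0.16, edgeR adjusted p = 0.00157), past the threshold in 11 of 11 alternatives and in 6 of 6 fits without a library. Among 13 co-receptors and binding proteins tested, 2 passed the threshold (15.4%, against 6.48% of all genes tested), and *Fgfbp1* was the 1 that fell. *Gpc6*, a glypican, rose, with a log2 fold change of 0.25 (adjusted p = 0.0118). Without control replicate 2 it was 0.20 and did not pass the threshold (adjusted p = 0.0841).

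Of 19 heparan sulfate enzymes tested, 2 rose and 1 fell past the threshold (15.8%, against 6.48% of all genes tested). The summed level of the 20 listed enzymes was 622 to 634 TPM in the controls and 682 to 713 TPM in *Phf2* KO cells, without overlap, while the median log2 fold change of the 19 tested was 0.06. *Sulf2* alone was at 153 to 161 TPM in the controls and at 196 to 201 TPM in *Phf2* KO cells, and without it the sum was 461 to 473 and 485 to 512 TPM. *Sulf2*, a sulfatase that removes 6-O-sulfate from heparan sulfate at the cell surface, was at 329, 328 and 312 CPM in the controls and at 409, 398 and 390 CPM in *Phf2* KO cells. On the log2 scale it changed by 0.31 (standard error 0.041, adjusted p = 0.000565), which was past the threshold in every alternative and in 6 of 6 fits without a library. *Glce*, the glucuronyl epimerase, rose (log2 fold change 0.28, adjusted p = 0.0219), and *Ndst4*, an N-deacetylase and sulfotransferase, fell (log2 fold change -0.56, adjusted p = 0.0156). Each of the latter passed in 2 of 6 fits without a library, with adjusted p-values up to 0.0944 without control replicate 1 for *Glce* and 0.0763 without *Phf2* KO replicate 3 for *Ndst4*. On the TPM scale the *Ndst4* groups overlapped (1.04 to 3.86 TPM in the controls and 1.21 to 2.52 TPM in *Phf2* KO cells), and its change was -0.25 on log2(TPM + 1) (limma adjusted p = 0.815).

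Downstream of the receptors, *Frs2*, which encodes the docking protein of FGF receptors, was the 1 of 23 adaptor and Ras-ERK genes that rose past the threshold, and 0 fell past it. That is 4.35%, against 6.48% of all genes tested, and 14 of the 23 were higher and 9 lower. *Frs2* was at 126, 132 and 140 CPM in the controls and at 169, 181 and 176 CPM in *Phf2* KO cells, 1.32-fold higher with no overlap. That difference, 0.40 on the log2 scale (standard error 0.049, edgeR adjusted p = 0.000259), passed the threshold in 11 of 11 alternatives and in 6 of 6 fits without a library. The median log2 fold change of the 23 genes was 0.04. DESeq2 called 3 of them, all higher.

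Of 9 feedback inhibitors tested outside the Sprouty genes, 7 were higher and 2 were lower. Past the threshold, 2 rose and 0 fell (22.2%, against 6.48% of all genes tested), and 4 had an unadjusted p under 0.05 (against 19.4%). *Il17rd* encodes the membrane inhibitor Sef, and its log2 fold change was 0.31 (adjusted p = 0.0215). *Dusp6* encodes an ERK phosphatase, and its log2 fold change was 0.33 (adjusted p = 0.0290). *Il17rd* was at 34.2 to 41.5 CPM in the controls and at 44.5 to 47.9 CPM in *Phf2* KO cells. *Dusp6* was at 19.8 to 21.7 CPM in the controls and at 23.9 to 28.5 CPM in *Phf2* KO cells. Neither group of 3 overlapped the other for these genes, but the calls were near the threshold. *Il17rd* passed in 1 of 6 fits without a library (up to 0.127 without control replicate 2), and its change on log2(TPM + 1) was 0.18 (limma adjusted p = 0.607). *Dusp6* passed in 2 of 6 (up to 0.140 without *Phf2* KO replicate 2). Of 11 target genes of ERK and ETS factors, 8 were higher and 3 were lower, with a median log2 fold change of 0.19. *Ccnd1*, the cyclin D1 gene, rose past the threshold (log2 fold change 0.33, adjusted p = 0.0497 from the quasi-likelihood test), and 0 fell past it. That is 9.09%, against 6.48% of all genes tested. *Ccnd1* passed in 5 of 11 alternatives and in 2 of 6 fits without a library, with an adjusted p of up to 0.202 without *Phf2* KO replicate 3. *Gpc6*, *Glce*, *Ndst4*, *Il17rd*, *Dusp6* and *Ccnd1* passed in neither limma fit of TPM, whereas *Fgfbp1*, *Sulf2* and *Frs2* passed in both.

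**Figure D5:**
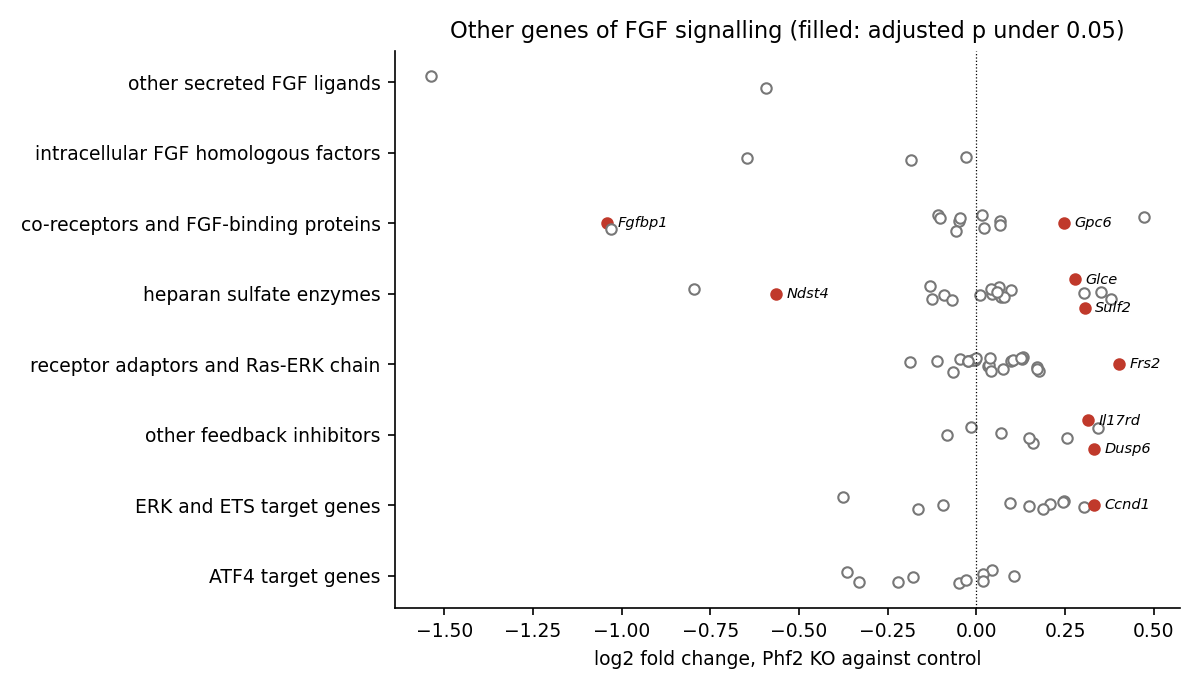
Log2 fold change of *Phf2* KO against control for the tested genes of the 8 lists (1 row per list, 1 point per gene). Among the lists is that of the ATF4 genes, which are not genes of FGF signalling. Filled, named points had an adjusted p under 0.05: *Fgfbp1* and *Ndst4* lie below 0, and *Gpc6*, *Glce*, *Sulf2*, *Frs2*, *Il17rd*, *Dusp6* and *Ccnd1* lie above it.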

How the data were processed

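The authors aligned paired-end reads to mm10 with HISAT2 and counted genes with StringTie; versions and annotation are not given in the sources used here. Their estimated counts, deposited in 1 matrix of whole numbers, are not scaled by depth. TPM, the authors' length-normalized signal, was read from the deposited table of each library at rows of reference genes only, and these sum to 976993 to 984559 per library. The same transcripts are listed again under assembled loci, so whole tables sum to 1976993 to 1984559. Finally, the deposited coverage served only to find what a count stands for. Positions and overlaps are from GENCODE M21 (GRCm38), and promoters from RefSeq.

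The members, lists and tests were chosen with earlier results of these data known. The fit used edgeR 4.0.16 under R 4.3.3: filterByExpr (minimum count 10), TMM, and the robust quasi-likelihood test on 3 against 3 libraries, with Benjamini-Hochberg adjustment over 17310 genes and a threshold of 0.05. All adjusted p-values without another tool named are from this fit. The prior count behind log2 fold changes was 0.125, and 95% intervals are not adjusted for multiple tests. The procedure was tested on simulated data. Alternatives were exactTest (the study's test), DESeq2 1.42.0, limma-voom (limma 3.58.1), other scalings and filters, counts divided by 4, limma on log2(TPM + 1) and log2(TPM + 0.1), the replicate block, and leaving out each library. At the same threshold the study reported far fewer changed genes than the main fit called, and more of them were lower than higher. Named genes were *Phf2*, the 10 members, in each other list up to 5 members past the threshold with the largest change (or the 2 of highest TPM where none passed), fixed markers, and the 3 genes most correlated with each changed member. Further genes of the ATF4 list, *Klb*, *Kl* and *Fgf13* were described outside this rule. The labels give replicate numbers but do not say that libraries of equal number are paired. Across 10923 genes, deviations from the group mean correlated at 0.25, 0.236 and 0.158 for equal numbers and at most -0.013 for unequal ones. Deviations cancel within a group, so the values for unequal numbers are not separate evidence. The main fit did not use the replicate number, and the replicate block did.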

Additional observations from a re-analysis of the deposited data

How the results depend on the processing

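With the replicate number as a block, 1316 genes were called (647 higher and 669 lower) against 1122 (557 and 565), 2 FGF genes and 9 other pathway genes were called, and none of the FGF and other pathway genes named here changed its call; marker calls that changed stand beside their lists. The block gave log2 fold changes of 0.59 for *Fgf7* (adjusted p = 0.000478), -0.29 for *Fgfr1* (0.00127) and -1.37 for *Phf2*. The limma fit of log2(TPM + 1) called 127 genes (57 higher and 70 lower), 1 FGF gene (0 lower) and 3 other pathway genes (2 higher and 1 lower), and that of log2(TPM + 0.1) called 153 (65 and 88), 1 (0 lower) and 3 (2 and 1). The cause was not tested. Without 1 library the fits called 468 to 1039 genes (206 to 507 higher and 262 to 532 lower), the fewest of these without control replicate 2 (468), followed by *Phf2* KO replicates 2 (577) and 3 (613). The same 6 fits called 2 FGF genes each, and 2 to 6 other pathway genes higher and 1 to 6 lower. exactTest called 4 of the latter lower, 1 of them in the list of ATF4 genes. *Fgfr1* held 94.0% and 94.4% of the receptor level in control and *Phf2* KO cells when CPM was divided by exon length. The sign turned only for changes near 0 that passed in no fit: *Fgf2* (-0.33 and -0.50 in the TPM fits, and -0.095 to 0.061 over the fits that left out a library), *Fgfr2* (-0.14 to 0.26 over the latter), *Spry2* (-0.12 to 0.033) and *Fgf14* (-0.20 to 0.11). *Fgfr2*, *Fgfr4* and *Fgf5* rest on few read pairs, so small changes of them were not detectable at this depth.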
